A study of Mus musculus with 9 samples.

Results

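The 10 genes described here encode regulators of mitochondrial number and shape. Ppargc1a, Ppargc1b, Tfam, Nrf1 and Esrra act in mitochondrial biogenesis, Opa1, Mfn1 and Mfn2 in fusion, and Dnm1l and Fis1 in fission. They were taken by gene name from the non-control probes of a mouse gene array, which gave 21 of 39429 probes. All 21 were among the 27994 probes kept because they were well above background on every array of at least 1 genotype, and each of the 21 was well above background on all 9 arrays. The arrays hold hippocampal RNA of male C57BL/6J mice aged 9 months, 1 array per mouse and 3 mice per genotype, which lacked IF1 in forebrain neurons (IF1-KO), served as controls (CRL) or overexpressed IF1 (IF1-TG). IF1, encoded by Atpif1 (now Atp5if1), is the inhibitory factor of the mitochondrial ATP synthase. In IF1-KO animals exon 3 of a floxed Atpif1 allele is removed by Cre under the Camk2a promoter, and the allele came from a C57BL/6NTac line. In IF1-TG mice human IF1 under tetO is switched on by a tetracycline transactivator that the Camk2a promoter drives, so that both changes are limited mainly to excitatory forebrain neurons while every other cell of the hippocampus keeps its own IF1. The genotype of the CRL mice on the arrays is given by the labels only as control. Because RNA came from the whole hippocampus, fewer cells of a type and less RNA per cell cannot be told apart in any value below.

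Mitochondrial biogenesis is driven from the nucleus. The coactivators PGC-1α (Ppargc1a) and PGC-1β (Ppargc1b) bind transcription factors such as NRF1 and the estrogen-related receptor ERRα (Esrra), which act on genes of the respiratory chain and on Tfam, whose protein packages mitochondrial DNA and starts its transcription. Shape is set by opposing GTPases. MFN1 and MFN2 fuse the outer membrane, OPA1 fuses the inner membrane and holds the cristae, and DRP1 (Dnm1l) constricts the organelle at the outer membrane, where FIS1 is one of several anchored proteins linked to fission. The question put to the arrays was whether the RNA of these genes differs between mice that lack IF1 and mice that overexpress it.

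Probes are 60 bases long, and several genes have more than 1. The first 30 bases of each probe of Tfam, Mfn2, Opa1 and Fis1 are shown because probes of these genes gave different values (positions on mm9, numbered by signal with the brightest first).
Tfam probe 1, chr10:70691103-70691162, minus strand: ctttgagccttgacagaagatgatgctgag
Tfam probe 2, chr10:70691260-70691319, minus strand: ctctgagcattaagatggaagacggagttg
Tfam probe 3, chr10:70688866-70688925, minus strand: cctctgaatttaaagctggtgttagcatac
Mfn2 probe 1, no position given in the deposited annotation: aaattcgagcttatgtaagtaaagattcat
Mfn2 probe 2, chr4:147248131-147248190, minus strand: ttgtgctcactcgcccctcagtctaccctt
Mfn2 probe 3, chr4:147248019-147248078, minus strand: tctcacagtgggtcacgtgaaaatcagtgt
Mfn2 probe 4, chr4:147255665-147255724, minus strand: ctttcatgtacactaggcacacttgtggta
Opa1 probe 1, chr16:29654447-29654506, plus strand: ctgtagcaactggaaatgtgcttgaaaata
Opa1 probe 2, chr16:29651875-29651934, plus strand: ttgaagaatgaaaacttgagtcttttgtcc
Fis1 probe 1, chr5:137442023-137442082, plus strand: agcctcttagcccctgcacctgtcgtttaa
Fis1 probe 2, chr5:137429355-137429414, plus strand: aaagactccggttgatagaccgctacggag
Tfam probes 1 and 2 start 157 bases apart and probe 3 lies 2237 bases from probe 1, toward the end of the gene. Mfn2 probe 4 was designed on the cDNA AK049583 and lies 7534 bases upstream of probe 2, which was designed on a RefSeq transcript. The Opa1 probes start 2572 bases apart and the Fis1 probes 12668 bases apart. The exons of these positions on mm9 were not analysed here.

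Promoters were searched for binding motifs of NRF1 and ERRα and of GABP, another factor of respiratory genes, over 250 bases before and 50 after each RefSeq start (GRCm38.p6, both strands). The core of the NRF1 motif, GCGCANGCG (CGCNTGCGC on the other strand), was in 7.03% of 27025 genes. Of the 9 members in the table (all but Ppargc1b), 2 held it, Esrra at position -141 from its start and Opa1 at -59, where it overlaps a match on the other strand at -58. Both matches are in capitals in the 250 bases before the Opa1 start, shown because Opa1 is the member whose level varied most between replicates.
Opa1, chr16:29579084-29579333, plus strand: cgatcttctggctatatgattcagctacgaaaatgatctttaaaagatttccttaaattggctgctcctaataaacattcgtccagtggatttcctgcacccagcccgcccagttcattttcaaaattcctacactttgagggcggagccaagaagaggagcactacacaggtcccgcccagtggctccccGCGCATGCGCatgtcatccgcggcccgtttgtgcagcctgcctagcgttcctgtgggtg
The GABP motif CCGGAAGTG, carried by 2.25% of genes, was found only in Fis1 among the 9, 19 bases after the second of its 2 listed starts. It is in capitals in the 30 bases around it.
Fis1, chr5:136962086-136962115, plus strand: caggtcgatgCCGGAAGTGcctctccgccc
The core ERR site AAGGTCA was in 5.38% of genes and in 0 of the 9 members, and its extended form TCAAGGTCA in 0.466% of genes and in 0 members. These matches describe letters only, and no binding was measured.

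Levels are given as log2 of the processed intensity after each array was centred on its own 75th percentile, so that 0 is the signal at that percentile and levels can be compared between arrays but not between probes. Between 66.8% and 74.9% of probes were well above background per array, least in IF1-TG mice (66.8% to 69.7%), and the replicates of a genotype correlated at 0.983 to 0.992. The Atpif1 probe read 6.44, 5.20 and 5.53 in IF1-KO mice, 6.32, 6.34 and 6.19 in CRL mice and 6.43, 6.39 and 6.51 in IF1-TG mice. The array labelled IF1-KO replicate 1 thus lay above every CRL array and within the IF1-TG range, and goes against its label. Whether the label is wrong or the sample held little deleted tissue was not tested, and every IF1-KO value that includes it carries that doubt. The difference between IF1-KO and CRL mice was -0.56 ± 0.27 (SE, 95% interval -1.19 to 0.064) with it and -0.92 without it, where the unadjusted limma P was below 0.05. Values rest on all 3 IF1-KO arrays unless stated, and the differences that involve IF1-KO mice are also given without it for the brightest probe of each member discussed. Whether the probe lies outside the deleted exon, and whether it binds the human IF1 transcript, was not tested. All 8 markers of hippocampal excitatory neurons were well above background on all 9 arrays, and their summed level in units of the array's 75th percentile ran from 35.9 to 43.4 in IF1-KO, 39.3 to 44.4 in CRL and 44.02 to 47.5 in IF1-TG mice. The bright probes weigh most in such a sum, and by gene only 3 of the 8 were higher in IF1-TG than CRL mice, with a median difference of -0.095. The summed level of 5 choroid plexus markers ran from 2.04 to 95.7, 3.00 to 118 and 4.85 to 180 in the same order, all 5 with a median difference of 0.88 on the log2 scale between IF1-TG and IF1-KO mice. The part of these markers in the values below was not tested.

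Taken at the brightest probe of each gene, none of the 10 regulators passed the study's thresholds, a fold change of at least 1.5 with an unadjusted limma P below 0.05. In IF1-TG against IF1-KO mice 0 of 10 passed, beside 3.71% of 21907 genes. Against CRL mice 0 of 10 passed in IF1-TG mice, beside 4.31% of genes, and 0 of 10 in IF1-KO mice, beside 1.02%. By P below 0.05 alone the members numbered 0, 0 and 0 and the genes 6.91%, 8.07% and 2.57%, and the smallest member P was 0.182, 0.0971 and 0.165. Adjusted for all probes tested, no member probe was below 0.05 in any comparison (lowest 0.544), and over the whole array 3 probes (0.0107%) were in IF1-TG against IF1-KO, 1 (0.00357%) in IF1-TG against CRL and 0 in IF1-KO against CRL mice. In the text that follows, ± gives the SE of a difference, and adjusted P is the limma P after Benjamini-Hochberg adjustment over the 27994 probes. A moderated F-test over the 3 genotypes gave P below 0.05 for 0 of 10 brightest probes, against 5.72% of genes.

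**Figure D1:**
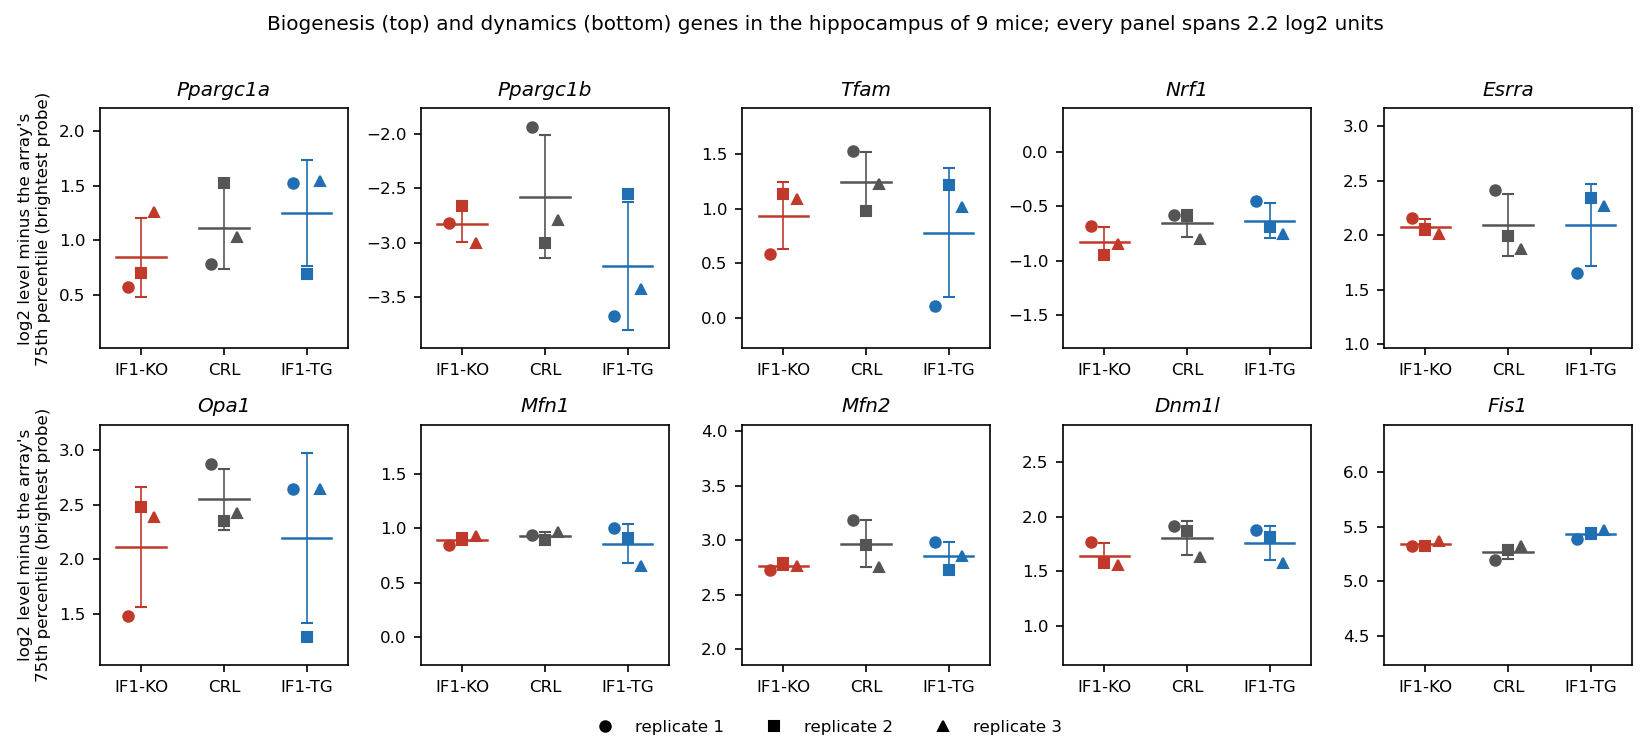
Level of the 10 regulators in each mouse at the brightest probe of the gene (y axis, log2 intensity centred on the 75th percentile of each array), by genotype on the x axis; points are arrays, horizontal lines means and bars SD, n = 3. The genotypes overlap in every panel but Fis1, and replicates differ most in Opa1, where 1 IF1-KO and 1 IF1-TG array read 1.48 and 1.29 while the others lie between 2.35 and 2.87.

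The absence of calls did not have the same weight for every gene. At the brightest probe of Nrf1, Esrra, Mfn1, Mfn2, Dnm1l and Fis1 the 95% interval of the difference stayed within a 1.5-fold change in either direction in all 3 comparisons, which held for 46.5%, 45.7% and 50.5% of all genes. For Ppargc1a, Ppargc1b, Tfam and Opa1 it reached past a 1.5-fold change in each of the 3 comparisons, so their differences were not bounded. The power to detect a change of that size was not tested. Over all 21 probes the bound held for 11 in IF1-TG against IF1-KO, 11 in IF1-TG against CRL and 12 in IF1-KO against CRL mice. Dimmer probes of Nrf1, Mfn2 and Fis1 fell outside it, with upper limits of 1.99-fold for Nrf1 and 2.39-fold for Mfn2 in IF1-TG against CRL and 2.97-fold for Fis1 in IF1-KO against CRL mice. Without the library labelled IF1-KO 1 the bound held in all 3 comparisons only for Mfn1, Mfn2 and Fis1, since the intervals of Esrra then reached -0.64 in IF1-KO minus CRL and 0.64 in IF1-TG minus IF1-KO, that of Nrf1 0.61 in IF1-TG minus IF1-KO and that of Dnm1l -0.59 in IF1-KO minus CRL. The Opa1 interval, the widest on the log2 scale at the brightest probes, ran from 0.391-fold to 1.41-fold in IF1-KO against CRL mice and from 0.556-fold to 2.00-fold in IF1-TG against IF1-KO mice. Without the library labelled IF1-KO 1 the latter ran from -1.19 to 0.70 on the log2 scale. The pooled SD of replicates was 0.57 for Opa1, higher than in 92.3% of genes, and 0.048 for Fis1, higher than in only 0.603%, beside a median of 0.24 over genes.

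In direction, 9 of the 10 brightest probes had a lower mean in IF1-KO than in CRL mice, Fis1 being the exception, where 53.2% of all genes had a lower mean. The median over the 10 was -0.19 against -0.014 over all genes. The array of CRL replicate 1 was the highest of all 9 arrays for 6 of the 10 members. Without it 7 of 10 were lower, with a median of -0.10, and without the library labelled IF1-KO 1 it was 9 of 10 with a median of -0.13. Without CRL replicate 3 it was 9 of 10 with a median of -0.28, beside -0.042 over all genes. Within the slide that carried the library labelled IF1-KO 1 and CRL replicates 1 and 2, 9 of 10 were lower with a median of -0.23. Within the slide that carried IF1-KO replicates 2 and 3 and CRL replicate 3, 6 of 10 were lower with a median of -0.040. Markers of other cells and regions also differed in level between IF1-KO and CRL mice, in both directions. All 6 striatal markers were lower, with a median of -0.42, and Adora2a among them passed both thresholds at -1.16 (95% interval -2.10 to -0.22). Adora2a read -1.87 in CRL replicate 3, against -3.33 and -3.61 in CRL replicates 1 and 2 and -4.26 to -3.47 in the IF1-KO and IF1-TG arrays. Of 6 oligodendrocyte markers 5 were lower, with a median of -0.32, and of 5 choroid plexus markers 4, with a median of -0.48 and 1 high array in each genotype (Ttr at 6.44, 6.75 and 7.28 against 0.25 to 3.13 on the others). All 4 blood markers had a higher mean, with a median of 0.30 and an SE above 1, while the highest single array was CRL replicate 2 (Hba-a1 at 7.20 against 2.86 to 5.11 on the others). The summed level of the 5 microglial markers measured on every array ran from 19.5 to 21.6 in IF1-KO and from 22.5 to 23.0 in CRL mice, although 2 of the 6 on the list were higher, with a median of -0.065. Past both thresholds 0 rose and 1 fell of all 56 markers of 10 lists, beside 1.02% of all genes. Over these 56 markers, 20 were higher and the median was -0.12. Their part in the shift of the 10 regulators was not tested. In IF1-TG mice 7 of 10 were below CRL (median -0.060, all genes -0.00057). There all 6 striatal markers were lower too, with a median of -0.38 and Adora2a past both thresholds at -0.96 (95% interval -1.90 to -0.018), a value that draws on the same high CRL replicate 3. Lef1, of the thalamic list, was past both thresholds and higher, at 0.68, while 2 of the 5 thalamic markers were higher in all, with a median of -0.051. Of all 56 markers 1 rose and 1 fell past both thresholds in this comparison, beside 4.31% of all genes, and the part of the markers was not tested. Between the engineered genotypes 3 of 10 were below IF1-KO (median 0.083, all genes 0.012), or 4 of 10 without the library labelled IF1-KO 1 (median 0.067). None of these counts carries a test.

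Ppargc1a, the coactivator that responds to energy demand, read 0.57, 0.70 and 1.26 in IF1-KO mice, 0.78, 1.53 and 1.03 in CRL mice and 1.53, 0.69 and 1.54 in IF1-TG mice. The genotypes overlapped, with IF1-TG replicates 1 and 3 at the top of the range and replicate 2 near the bottom. The difference between IF1-TG and IF1-KO mice was 0.41 ± 0.30 (95% interval -0.27 to 1.09, adjusted P = 0.765), 0.27 without the library labelled IF1-KO 1 and 0.79 with slide as a block. IF1-TG replicates 1 and 2 shared the first slide with no other genotype, so the value with slide as a block rests on IF1-TG replicate 3 alone. The second Ppargc1a probe, 2002 bases from the first, gave -0.068 ± 0.14 (adjusted P = 0.915). The paralog Ppargc1b, measured by 1 probe, read -2.82, -2.66 and -3.00 in IF1-KO mice, -1.94, -3.00 and -2.79 in CRL mice and -3.67, -2.55 and -3.42 in IF1-TG mice. Replicates 1 and 3 of IF1-TG were the lowest of the 9 arrays while replicate 2 lay above every IF1-KO array. IF1-TG minus IF1-KO was -0.39 ± 0.34 (adjusted P = 0.798), -0.38 without the library labelled IF1-KO 1, and -0.72 to -0.16 over single arrays left out. The differences from CRL mice were -0.64 ± 0.34 in IF1-TG (95% interval -1.42 to 0.14, adjusted P = 0.654) and -0.25 ± 0.34 in IF1-KO mice (95% interval -1.03 to 0.53), the latter being -0.26 without the library labelled IF1-KO 1. Without CRL replicate 1, the highest array, they were -0.32 and 0.070.

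IF1-TG replicate 2 decided whether the coactivators were called, that is, past both of the study's thresholds. Without that array the Ppargc1a difference between IF1-TG and IF1-KO mice was 0.69 (95% interval 0.060 to 1.32, adjusted P = 0.462), and that of Ppargc1b -0.72 (95% interval -1.43 to -0.014, adjusted P = 0.481). Ppargc1b then also lay below CRL mice, with a difference of -0.97 (95% interval -1.68 to -0.26, adjusted P = 0.300). The share of all genes past both thresholds then rose to 5.93% against IF1-KO and 6.71% against CRL mice. Ppargc1a against CRL mice remained short of the threshold, at 0.42 (95% interval -0.21 to 1.05).

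Tfam was measured by 3 probes, of which only probe 2 had an unadjusted P below 0.05. At probe 2 the level was 0.40, 0.51 and 0.33 in IF1-KO mice, 0.54, 0.22 and 0.46 in CRL mice and 0.28, -0.19 and -0.32 in IF1-TG mice. Every IF1-TG array was below every IF1-KO array, as in 5% of kept probes, and 2 of 3 were below every CRL array. The difference was -0.49 ± 0.17 from IF1-KO (95% interval -0.88 to -0.094, adjusted P = 0.661) and -0.48 ± 0.17 from CRL mice (95% interval -0.88 to -0.089, adjusted P = 0.544), short of 1.5-fold in both comparisons, and IF1-TG minus IF1-KO was -0.49 without the library labelled IF1-KO 1 (95% interval -0.97 to -0.014). The unadjusted P was no longer below 0.05 without IF1-TG replicate 2 (-0.43 in both comparisons) or 3 (-0.37 and -0.36), without IF1-KO replicate 2 in the first comparison (-0.44), and without CRL replicate 1 or 3 in the second (-0.42 and -0.46). With IF1-TG replicate 3, the one IF1-TG array on the second slide, set against the others on that slide, the differences were -0.72 and -0.70. The first of these is from the library labelled IF1-KO 1 alone. With slide as a block they were -0.70 and -0.71, values that again rest on IF1-TG replicate 3 alone and add no separate evidence. With normexp background correction and quantile normalization IF1-TG minus IF1-KO was -0.38, with an unadjusted limma P above 0.05. At probe 1, only 157 bases away, the levels were 0.59, 1.14 and 1.09 in IF1-KO mice, 1.53, 0.98 and 1.23 in CRL mice and 0.11, 1.22 and 1.01 in IF1-TG mice. There the low IF1-TG array was replicate 1, which was the highest of the 3 at probe 2, and the difference from CRL mice was -0.46 ± 0.30 (adjusted P = 0.696), with a range of -0.68 to -0.13 over single arrays left out, the smallest without IF1-TG replicate 1. IF1-TG minus IF1-KO at probe 1 was -0.16 ± 0.30 (adjusted P = 0.912), and -0.33 without the library labelled IF1-KO 1. At probe 3 the mean was -2.83 in IF1-KO, -2.78 in CRL and -2.74 in IF1-TG mice, and IF1-TG minus CRL was 0.046 ± 0.30 (adjusted P = 0.978).

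Among all 21 probes, Tfam probe 2 was the only one with P below 0.05 between IF1-TG and IF1-KO mice, where 7.15% of all kept probes had it. Between IF1-TG and CRL mice it was 1 of 2, beside 8.46% of probes, the other being Mfn2 probe 4, and between IF1-KO and CRL mice there was none among the 21, beside 2.56%.

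**Figure D2:**
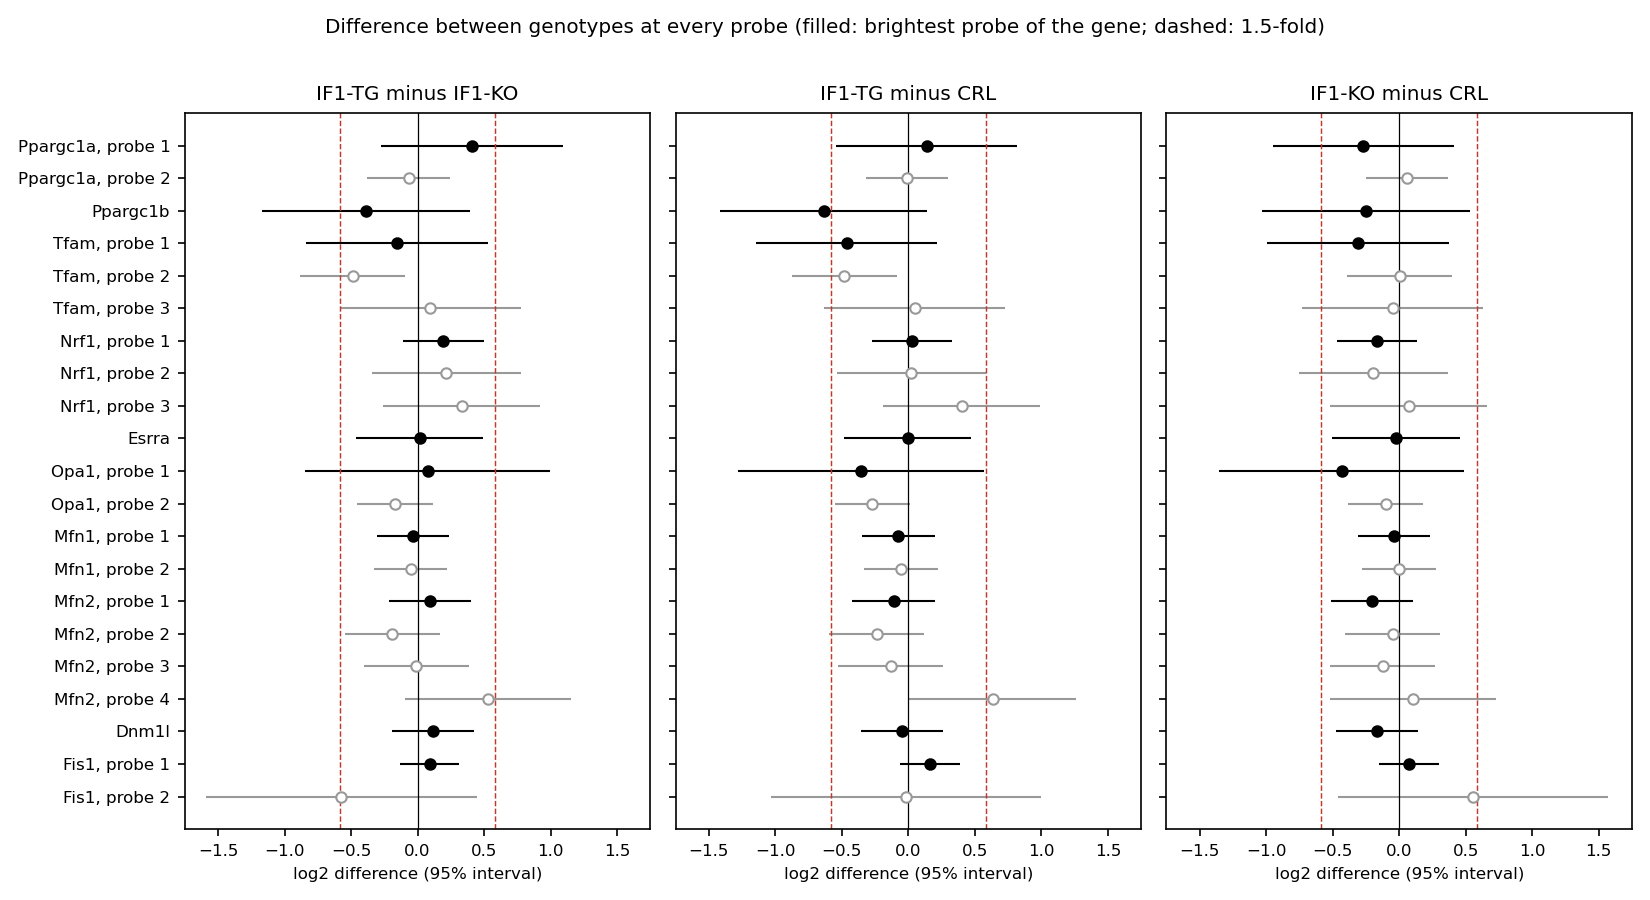
Difference between 2 genotypes on the log2 scale (x axis, point and 95% interval from limma) for each of the 21 probes (y axis, numbered by signal within a gene), with the brightest probe of each gene filled and a 1.5-fold change dashed. Of the intervals, only those of Tfam probe 2 (IF1-TG minus IF1-KO, -0.49, and minus CRL, -0.48) and of Mfn2 probe 4 (IF1-TG minus CRL, 0.63) leave out 0.

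Nrf1, the transcription factor of respiratory genes and of Tfam, ranged from -0.94 to -0.68 in IF1-KO, from -0.80 to -0.58 in CRL and from -0.75 to -0.45 in IF1-TG mice at its brightest probe. The groups overlapped, and IF1-TG minus IF1-KO was 0.19 ± 0.13 (adjusted P = 0.753), with a range of 0.10 to 0.26 over single arrays left out, the highest without the library labelled IF1-KO 1. Its other probes, between -5.63 and -4.62 in level, gave 0.22 ± 0.24 and 0.33 ± 0.26 for the same comparison, and 0.057 and 0.15 without the library labelled IF1-KO 1. Esrra, whose product ERRα is coactivated by both PGC-1 proteins, ranged from 2.01 to 2.16, 1.88 to 2.42 and 1.66 to 2.34 in the IF1-KO, CRL and IF1-TG groups. Its 3 differences were at most 0.021 in size with an SE of 0.21, the smallest of any member. Under other scalings the sign of IF1-TG minus IF1-KO turned, and without the library labelled IF1-KO 1 the 2 differences that rest on IF1-KO arrays were 0.058 (IF1-TG minus IF1-KO) and -0.065 (IF1-KO minus CRL).

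Opa1, the fusion GTPase of the inner membrane, varied more between replicates than between genotypes at probe 1. The level was 1.48, 2.48 and 2.39 in IF1-KO mice, 2.87, 2.35 and 2.42 in CRL mice and 2.64, 1.29 and 2.64 in IF1-TG mice. One array of each mutant genotype, the library labelled IF1-KO 1 and IF1-TG replicate 2, stood apart below its replicates. The difference from CRL mice was -0.43 ± 0.40 in IF1-KO (95% interval -1.35 to 0.49) and -0.36 ± 0.40 in IF1-TG mice (95% interval -1.28 to 0.57). It became -0.12 for IF1-KO without replicate 1 (95% interval -1.06 to 0.83) and 0.093 for IF1-TG without replicate 2 (95% interval -0.63 to 0.82). IF1-TG minus IF1-KO was 0.075 ± 0.40, and turned to -0.24 without the library labelled IF1-KO 1 (95% interval -1.19 to 0.70). Probe 2 did not show the low arrays. Its levels were -0.31, -0.056 and -0.40 in IF1-KO mice, -0.12, -0.25 and -0.097 in CRL mice and -0.49, -0.43 and -0.37 in IF1-TG mice. All 3 IF1-TG arrays were below all CRL arrays, as were the arrays of 5.18% of kept probes, with a difference of -0.27 ± 0.12 (95% interval -0.56 to 0.010, adjusted P = 0.600).

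The mitofusins, which tether and fuse outer membranes, were steadier. Mfn1 ranged from 0.85 to 0.93 in IF1-KO, from 0.90 to 0.96 in CRL and from 0.66 to 1.00 in IF1-TG mice at probe 1. IF1-TG replicate 3 was the lowest array at both Mfn1 probes, with 0.66 and 0.28. The differences of IF1-TG from CRL mice were -0.075 ± 0.12 and -0.055 ± 0.12 at these probes, which start 205 bases apart. Mfn2 probe 1 ranged from 2.73 to 2.79 in IF1-KO, from 2.76 to 3.19 in CRL and from 2.73 to 2.98 in IF1-TG mice, and IF1-KO minus CRL was -0.21 ± 0.14 (95% interval -0.52 to 0.10). Without the library labelled IF1-KO 1 it was -0.19 ± 0.16 (95% interval -0.57 to 0.19), without CRL replicate 1 -0.097 and without CRL replicate 3 -0.31, with an unadjusted P above 0.05 in each case. Within the second slide it was -0.35 and within the third 0.022. Probes 2 and 3 gave -0.24 ± 0.16 and -0.13 ± 0.17 for IF1-TG minus CRL (adjusted P = 0.704 and 0.864).

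Mfn2 probe 4, on the cDNA sequence upstream, went the other way. It read -4.11, -4.45 and -3.84 in IF1-KO mice, -3.96, -4.24 and -4.51 in CRL mice and -3.42, -4.18 and -3.21 in IF1-TG mice, far below the 75th percentile of the arrays. IF1-TG replicates 1 and 3 were the highest of the 9 arrays and replicate 2 lay within the CRL range. IF1-TG minus CRL was 0.63 ± 0.27 (95% interval 0.0065 to 1.26, adjusted P = 0.587), the only member probe past both of the study's thresholds, where 4.47% of kept probes passed in that comparison. It was 0.92 (95% interval 0.39 to 1.45, adjusted P = 0.246) without IF1-TG replicate 2. The unadjusted P was not below 0.05 without IF1-TG replicate 1 (0.54) or 3 (0.44), without CRL replicate 2 (0.63) or 3 (0.50), or without the library labelled IF1-KO 1 or IF1-KO replicate 3 (0.63 in both, since these arrays enter only the estimate of the spread). Against IF1-KO mice it was 0.53 ± 0.27 (95% interval -0.097 to 1.16), 0.54 without the library labelled IF1-KO 1 (adjusted P = 0.696) and 0.82 without IF1-TG replicate 2 (95% interval 0.29 to 1.34). Of all calls in IF1-TG against CRL mice 50.2% were higher in IF1-TG mice, but 82.1% with no filter on dim probes. Among probes well above background on all 9 arrays, as this one was, the share was 63.4%. The part of this lean in the value of so dim a probe was not tested.

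**Figure D3:**
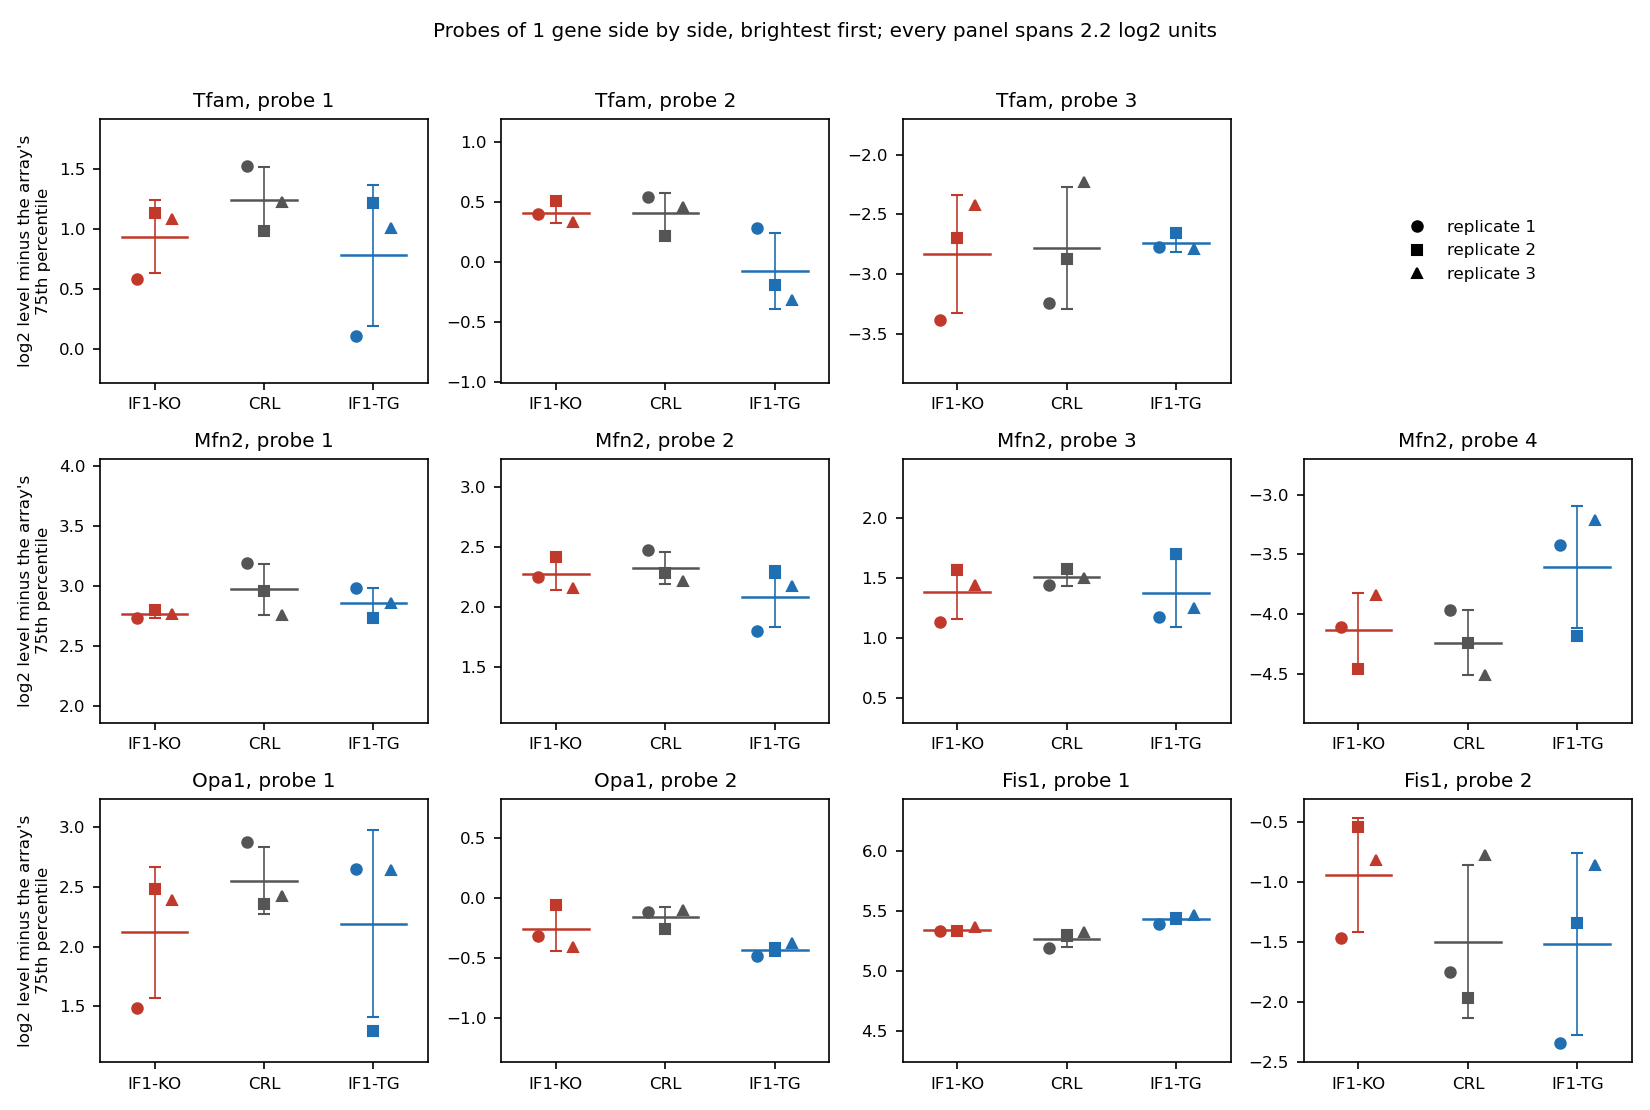
Level per array (y axis, log2 intensity centred on the 75th percentile of each array) by genotype at every probe of Tfam, Mfn2, Opa1 and Fis1, brightest probe first; points are arrays, lines means and bars SD, n = 3. The mean of Tfam is lower in IF1-TG mice at probe 1 (0.78 against 0.94 in IF1-KO and 1.25 in CRL mice) and at probe 2 (-0.076 against 0.41 in both) and not at probe 3. At probe 1 the lower mean against IF1-KO rests on IF1-TG replicate 1, without which IF1-TG minus IF1-KO is 0.18 and IF1-TG minus CRL -0.13. The low arrays of Opa1 probe 1 are not low at probe 2.

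Dnm1l, which encodes the fission GTPase DRP1, ranged from 1.56 to 1.77 in IF1-KO, from 1.63 to 1.91 in CRL and from 1.58 to 1.88 in IF1-TG mice. The groups overlapped. IF1-KO minus CRL was -0.16 ± 0.13 (95% interval -0.47 to 0.14) and -0.23 ± 0.15 without IF1-KO replicate 1 (95% interval -0.59 to 0.13). It was -0.11 without CRL replicate 1, -0.25 without CRL replicate 3 and -0.088 with slide as a fixed block. IF1-TG minus CRL was -0.045 ± 0.13 (95% interval -0.35 to 0.26).

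Fis1 at probe 1 was the member with the smallest spread. It read 5.33, 5.33 and 5.37 in IF1-KO mice, 5.19, 5.29 and 5.32 in CRL mice and 5.39, 5.44 and 5.47 in IF1-TG mice, so that the 3 genotypes did not overlap. Non-overlap in the same direction was found in 8.39% of genes for IF1-TG above IF1-KO, 6.60% for IF1-TG above CRL and 3.76% for IF1-KO above CRL mice. IF1-TG minus CRL was 0.16 ± 0.098 (adjusted P = 0.681), which kept its sign under all alternatives for the brightest probe. IF1-TG minus IF1-KO was 0.090 ± 0.098 (adjusted P = 0.834) and turned to -0.0019 under quantile normalization, and IF1-KO minus CRL was 0.073 ± 0.098 (95% interval -0.15 to 0.30) and turned to -0.051 with normexp background correction and quantile normalization. Without the library labelled IF1-KO 1 these 2 differences were 0.083 and 0.080. Probe 2, upstream, varied far more, from -2.35 to -0.54, with a pooled SD of 0.64, and IF1-TG minus IF1-KO was -0.57 ± 0.45 there (adjusted P = 0.773).

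Other genes of the same processes were taken from a list of 93 symbols in 6 roles, of which 86 were on the array and tested. In IF1-TG against IF1-KO mice 0 rose and 2 fell past both thresholds (2.33% of the 86, beside 3.71% of all genes), and in IF1-TG against CRL mice 1 rose and 2 fell (3.49%, beside 4.31%), both shares being below those of all genes. In IF1-KO against CRL mice 0 passed, beside 1.02% of all genes, and 0 had P below 0.05 in limma. The median difference over the 86 was 0.051, -0.0058 and -0.052 in the same order, beside 0.012, -0.00057 and -0.014 over all genes. By role, the medians in IF1-TG minus IF1-KO ran from -0.046 for mitochondrial transport to 0.14 for fusion modifiers and inner membrane shape.

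Phb, a prohibitin of the inner membrane that holds OPA1 in its long form, read 2.15, 2.57 and 2.51 in IF1-KO mice, 2.58, 2.23 and 2.42 in CRL mice and 1.35, 1.43 and 2.21 in IF1-TG mice at its brightest probe. It fell by 0.75 ± 0.24 in IF1-TG mice against each of the others (adjusted P = 0.661 and 0.503), and IF1-TG minus IF1-KO was -0.87 without the library labelled IF1-KO 1. The low arrays were the pair on the first slide, which held no other genotype. Within the second slide IF1-TG minus IF1-KO was 0.056 and IF1-TG minus CRL -0.20. The only IF1-TG array there was replicate 3 and the only IF1-KO array the doubted library labelled IF1-KO 1. With slide as a block the differences were -0.066 and -0.14, which rest on IF1-TG replicate 3 alone. A second Phb probe gave -0.24 ± 0.27 and 0.056 ± 0.27 (adjusted P = 0.837 and 0.970). Snph, syntaphilin, which docks mitochondria in axons, read 4.48, 4.80 and 4.76, then 4.63, 4.50 and 4.75, then 4.16, 3.40 and 4.25 in the IF1-KO, CRL and IF1-TG groups. All IF1-TG arrays were the lowest, with non-overlap in that direction in 4.87% of genes against IF1-KO and 5.15% against CRL mice. The difference was -0.74 ± 0.22 from IF1-KO (adjusted P = 0.661) and -0.69 ± 0.22 from CRL mice (adjusted P = 0.509). Both values draw most on IF1-TG replicate 2, at 3.40 against 4.16 and 4.25 in replicates 1 and 3. Without the library labelled IF1-KO 1 the first was -0.85. Within the second slide the differences were -0.23 and -0.32, and with slide as a block -0.27 and -0.30, again from IF1-TG replicate 3 alone. Tefm, the elongation factor of mitochondrial transcription, read -2.29, -2.70 and -2.72 in IF1-KO, -3.38, -3.78 and -2.51 in CRL and -2.46, -2.40 and -2.75 in IF1-TG mice. It rose in IF1-TG against CRL mice by 0.69 ± 0.30 (adjusted P = 0.585), with CRL replicate 3 within the IF1-TG range, and was 0.036 ± 0.30 against IF1-KO mice (adjusted P = 0.983). For Tefm the unadjusted P was below 0.05 only as long as every array but CRL replicate 3 was in the fit (0.41 without CRL replicate 2). With slide as a block the difference was 0.59, from IF1-TG replicate 3 alone.

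**Figure D4:**
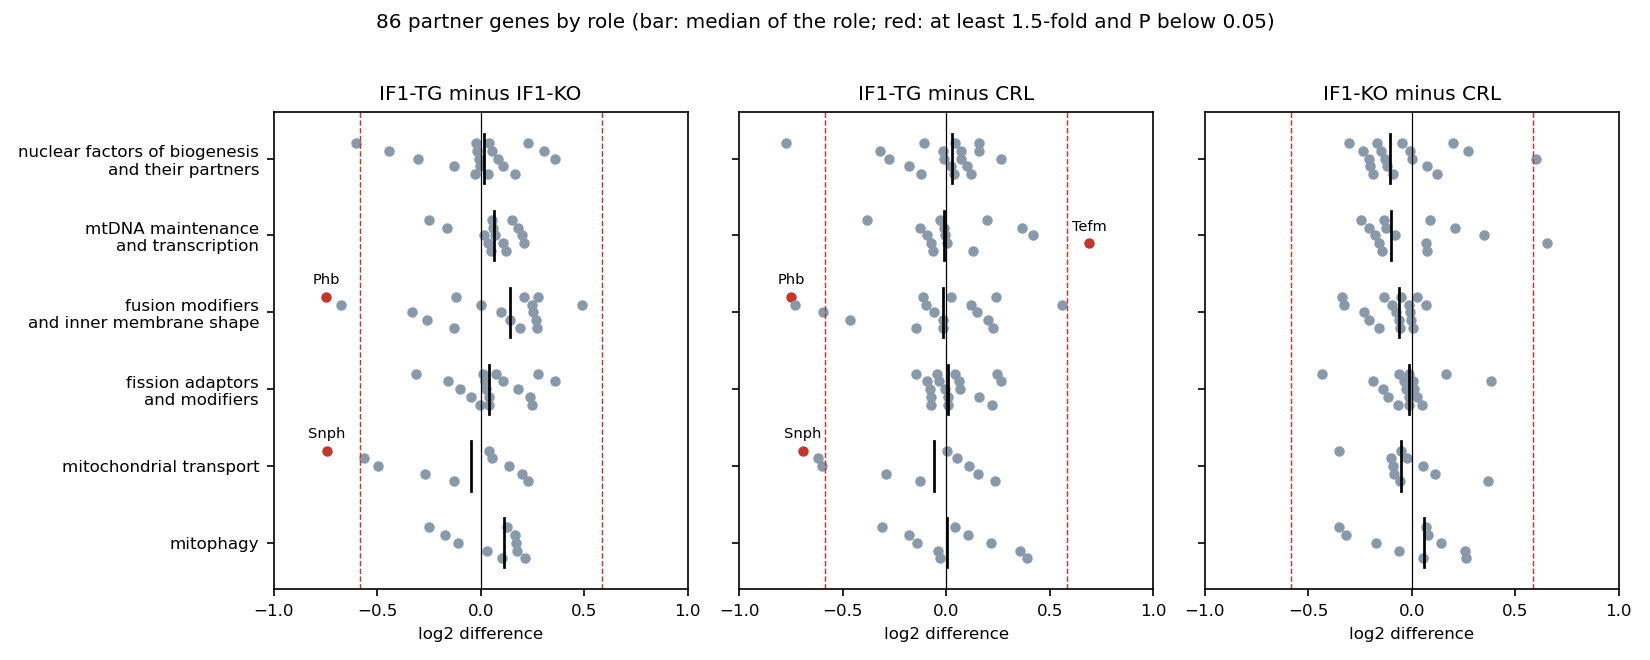
Difference between 2 genotypes on the log2 scale (x axis) for 86 other genes of mitochondrial biogenesis and dynamics by role (y axis), with the median of each role as a bar, a 1.5-fold change dashed and genes past both thresholds in red. Phb and Snph lie at -0.75 and -0.74 in IF1-TG minus IF1-KO, Tefm at 0.69 in IF1-TG minus CRL, and no gene is red in IF1-KO minus CRL.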

How the data were processed

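RNA of 9 hippocampi (1 mouse per array) was hybridised to one-colour Agilent arrays. The authors deposited spot intensities of Feature Extraction 10.7.3.1, corrected for background and spatial trend but not normalized between arrays, along with the uncorrected mean and local background intensities used in an alternative. The deposited marks for signal above background and for outlier spots were used as given. Normalization of the study's own analysis is not given in the sources used here.

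Processed intensity was taken to log2 and centred on each array's 75th percentile, without control or outlier spots. Probes well above background on all 3 arrays of a genotype were kept. All 9 arrays entered one limma 3.58.1 model under R 4.3.3 with genotype and eBayes. P values are unadjusted unless named adjusted (Benjamini-Hochberg over 27994 probes). A gene is given by its brightest probe unless a probe number is stated. Steps were tested on simulated data. No spot was saturated, and the number of arrays limits the precision.

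The members, the partner and marker lists and the tests were chosen with earlier results of these data known. Named are all member probes, Atpif1 and partner genes past both thresholds. Alternatives were other background corrections, scalings and filters, slide as a block or within slides, a replicate block, 2 genotypes alone, trend and robust eBayes, the mean of a gene's probes, and each array left out. Tfam probe 2 and Mfn2 probe 4 were added to these after their values had been seen. Labels do not say whether mice were littermates. IF1-TG replicates 1 and 2 shared the first slide with no other genotype, so with slide as a fixed block every IF1-TG difference and call rests on IF1-TG replicate 3.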

Additional observations from a re-analysis of the deposited data

How the results depend on the processing

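With all arrays of the genotypes compared, 0 of 10 members had an unadjusted P below 0.05 in any comparison under any other background correction, scaling, filter, block or fit tried. Leaving out 1 array gave 0 to 2 members in IF1-TG against IF1-KO and 0 to 1 in IF1-TG against CRL mice, by P alone and by both thresholds, the higher counts being those without IF1-TG replicate 2. Among partner genes, slide as a fixed block gave 4 and 6 calls in these comparisons, the mean of a gene's probes gave 1 in the first, and in IF1-KO against CRL mice normexp with quantile normalization gave 1. Arrays left out gave 2 to 5 calls in IF1-TG against CRL and 0 to 3 in IF1-KO against CRL mice, the highest counts being those without CRL replicate 3. Replicate numbers did not pair the mice (correlation of deviations -0.17 to 0.12 for equal numbers, -0.25 to 0.34 for unequal ones), and the replicate block gave 1 partner gene in IF1-KO against CRL mice, left Tefm in IF1-TG against CRL mice short of P = 0.05 and moved no member across it. The Atpif1 difference between IF1-KO and CRL mice was 0.11 within the second slide and -0.92 to -0.30 over arrays left out.

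Signs turned for some members. For IF1-TG minus IF1-KO, normexp with quantile normalization gave -0.17 for Esrra, -0.10 for Opa1 and 0.089 for Mfn1, quantile normalization -0.015 for Esrra and -0.0019 for Fis1, the array median -0.0032 for Esrra, slide as a fixed block 0.24 for Tfam, -0.071 for Nrf1 and -0.21 for Dnm1l, and the mean of a gene's probes -0.048 for Opa1 and -0.24 for Fis1. Phb was 0.056 within the second slide. For IF1-TG minus CRL, normexp with quantile normalization gave 0.0090 for Dnm1l, slide as a fixed block -0.17 for Nrf1, 0.094 for Esrra and 0.22 for Opa1, slide as a random block 0.0068 for Esrra, and the mean of probes 0.038 for Mfn2. For IF1-KO minus CRL, normexp with quantile normalization gave 0.16 for Esrra and -0.051 for Fis1, and slide as a fixed block 0.055 for Esrra. Within the third slide, IF1-KO minus CRL was 0.0096 for Opa1, 0.022 for Mfn2 and 0.15 for Esrra. Slide as a fixed block also moved IF1-TG minus IF1-KO to 0.79 for Ppargc1a, -0.71 for Ppargc1b and 0.78 for Opa1. The causes were not tested. Over arrays left out, IF1-TG minus IF1-KO ran from -0.24 to 0.53 for Opa1, -0.11 to 0.23 for Esrra, -0.37 to 0.18 for Tfam and -0.11 to 0.063 for Mfn1. IF1-TG minus CRL ran from -0.028 to 0.42 for Ppargc1a, -0.97 to -0.32 for Ppargc1b, -0.68 to -0.13 for Tfam, -0.13 to 0.21 for Esrra, -0.13 to 0.044 for Dnm1l, -0.064 to 0.087 for Nrf1, -0.58 to 0.093 for Opa1 and -0.15 to 0.025 for Mfn1. IF1-KO minus CRL ran from -0.13 to 0.14 for Esrra and -0.46 to 0.070 for Ppargc1b.

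Over all kept probes, 1063, 1252 and 299 passed both thresholds in IF1-TG against IF1-KO, IF1-TG against CRL and IF1-KO against CRL mice, of which 47.3%, 50.2% and 58.9% were higher in the first genotype. Normexp with quantile normalization gave 565, 568 and 160 (82.5% higher in the last), no filter on dim probes 3207, 4669 and 729 (77.3%, 82.1% and 47.1% higher), well above background on all 9 arrays 753, 917 and 176 (60.7%, 63.4% and 69.9% higher), and slide as a fixed block 2218 in IF1-TG against CRL mice. The replicate block gave 1068, 1187 and 329. Single arrays left out gave 621 (without IF1-KO replicate 2) to 1755 (without IF1-TG replicate 2), 996 to 1966 (without CRL replicate 1 and IF1-TG replicate 2) and 184 to 1019 (without CRL replicates 1 and 3 in turn). IF1-TG against IF1-KO without IF1-TG replicate 3 gave 1601, with 24.9% higher, and IF1-TG against CRL then had 26.5% higher. Without the library labelled IF1-KO 1, IF1-KO against CRL gave 471, with 42.9% higher. With 3 arrays per genotype, differences under 1.5-fold could be bounded at the brightest probe for only 6 of the 10 members, and for only 3 without the library labelled IF1-KO 1.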
